A study of Mus musculus with 9 samples.

Results

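The 10 genes described here encode 6 facilitative glucose transporters (Slc2a4, Slc2a1, Slc2a3, Slc2a8, Slc2a10 and Slc2a12) and 4 proteins of insulin signaling (Insr, Irs1, Irs2 and Akt2). They were taken by symbol from the 19930 genes that had at least 1 probe set annotated to a single symbol, and each was followed as its mean log2 signal in all 9 arrays. The list was drawn up with the stage values of these same arrays in view, so the differences of the 10 genes between stages are given as a description, without a test.

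The arrays measured adipose stromal cells (ASCs) of mammary glands from female Balb/c mice, with 3 preparations per stage. ASC-Ns came from nulliparous females aged 8 weeks that had not been kept with males. ASC-Ls were taken on day 5 of lactation, and ASC-Is on day 3 of involution, the regression of the gland once suckling stops. By the methods of the study, the mice of these later stages were mated at 8 weeks of age. They were thus older than the ASC-N mice, and age cannot be told apart from stage in comparisons with ASC-Ns. The labels name no transgene and no drug in any group. The labels describe stroma freed by collagenase and hyaluronidase digestion and centrifugation, with RNA taken by Trizol, whereas the methods of the study describe RNA from low-passage cultures and cells of multiple mice. The labels call the 3 arrays of a stage biological replicates. Which mice stand behind an array was not given, so the spread between arrays may still be partly technical.

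The mean over 15 measured stromal markers was high in every array (10.13 to 10.83), but single markers were uneven. The collagen gene Col1a1 lay between 12.63 and 13.36, whereas Lum lay between 4.62 and 9.06. Cd34 lay between 4.94 and 7.76 and S100a4 between 5.71 and 9.55. The 17 measured markers of mature adipocytes averaged at most 6.23 in any array but were uneven. Adipoq, which encodes adiponectin, lay between 3.82 and 4.41, whereas Fabp4 lay between 7.50 and 8.45 and Lpl between 8.97 and 11.38. Other cell types entered unevenly. Replicate 2 of the ASC-Ls and replicate 2 of the ASC-Is stood apart through markers of luminal epithelium, the milk-making layer of the gland, whose mean over 15 genes was 8.82 and 7.54 there, against 5.73 to 6.84 in the other 7 arrays. They are called the epithelium-rich arrays here. The same pair was high for basal epithelium (10 markers), with means of 9.19 and 8.08, against 6.52 to 7.32 in the other arrays, and for endothelium (10 markers), with 7.02 and 6.48. Endothelial markers averaged 6.74 in replicate 1 of the ASC-Ns and 5.07 to 5.53 in the remaining arrays. Macrophage markers (16 genes) averaged 8.22, 8.18 and 6.16 in the ASC-Ns, 6.74, 6.70 and 6.50 in the ASC-Ls, and 8.93, 7.32 and 7.79 in the ASC-Is. In such mixed samples, fewer cells of a type and less RNA per cell cannot be told apart.

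Glucose enters most cells through transporters of the Slc2a family, each of which lets sugar run down its gradient across a membrane. In fat and muscle, insulin binds its receptor Insr, the receptor phosphorylates the docking proteins Irs1 and Irs2, these recruit phosphoinositide 3-kinase, and the kinase Akt2 then releases vesicles that carry the transporter GLUT4, the product of Slc2a4, to the cell surface. In the mammary gland, lactation draws heavily on glucose for lactose and milk fat, and adipose tissue becomes less responsive to insulin at the same time.

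Promoter windows from 250 bases before to 50 bases after a start site were available for 7 of the 10 genes in the RefSeq table of build GRCm38.p6. Akt2 had 4 windows and Irs1, Irs2, Slc2a1, Slc2a8, Slc2a10 and Slc2a12 had 1 each. The windows of Slc2a4, Slc2a3 and Insr were not used here. Of the others, 3 are printed 5′ to 3′ on the strand of the gene, since Slc2a8, Slc2a1 and Irs1 had the strongest joint pattern over the arrays. Capitals mark the E-box (CACGTG), the hypoxia core (ACGTG, which every E-box here also contains) and the GC box (GGGCGG), each searched on both strands.
Slc2a8, chr2:32982034-32982333, minus strand: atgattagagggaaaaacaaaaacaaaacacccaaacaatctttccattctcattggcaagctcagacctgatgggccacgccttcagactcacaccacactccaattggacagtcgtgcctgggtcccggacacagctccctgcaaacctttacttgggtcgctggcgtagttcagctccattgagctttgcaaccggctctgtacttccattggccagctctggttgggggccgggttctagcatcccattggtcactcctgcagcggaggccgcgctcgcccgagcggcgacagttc
Slc2a1, chr4:119108495-119108794, plus strand: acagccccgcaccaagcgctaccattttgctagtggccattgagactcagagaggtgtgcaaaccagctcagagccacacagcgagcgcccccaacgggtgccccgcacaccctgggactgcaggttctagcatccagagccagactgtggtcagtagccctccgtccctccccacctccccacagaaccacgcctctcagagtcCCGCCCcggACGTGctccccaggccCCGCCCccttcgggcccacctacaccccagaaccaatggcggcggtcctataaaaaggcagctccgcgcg
Irs1, chr1:82291390-82291689, minus strand: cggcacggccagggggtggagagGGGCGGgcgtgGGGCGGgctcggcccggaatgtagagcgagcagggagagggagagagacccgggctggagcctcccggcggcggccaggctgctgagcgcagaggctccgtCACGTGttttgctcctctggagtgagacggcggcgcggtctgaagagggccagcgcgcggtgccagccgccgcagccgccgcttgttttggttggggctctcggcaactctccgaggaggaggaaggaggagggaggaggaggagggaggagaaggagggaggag
The Slc2a8 window (55.67% G and C) held none of these motifs. The Slc2a1 window (65.33% G and C) held the hypoxia core at -36 and GC boxes at -45 and -20, counted from the start site to the first base of the match. The Irs1 window (71.33% G and C) held an E-box at -115 and GC boxes at -227 and -216. An E-box was also found in the Irs2 window, at -44, which makes 2 of 10 windows (2 of 7 genes). Over all 32851 promoter windows the share was 7.15%, and the median G and C content was 52.67%. The hypoxia core was found in 5 of the 10 windows (5 of 7 genes), against 19.62% of all windows. The GC box was likewise in 5 of 10 (5 of 7 genes), against 35.66% of all windows. The FoxO motif GTAAACA, the letters bound by the factors that Akt keeps out of the nucleus, was found in 0 of the 10 and in 3.65% of all windows. Akt2, with several windows, had more chances to hold a motif.

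Slc2a4, the insulin-responsive transporter, was the member whose level followed the stage most closely. Its log2 signal was 5.75, 5.59 and 5.62 in the ASC-Ns, 6.30, 6.42 and 6.19 in the ASC-Ls, and 6.13, 6.19 and 5.86 in the ASC-Is (replicates 1 to 3). These values came from 1 probe set and lay near the middle of all signals on the arrays. All 3 ASC-N arrays and replicate 3 of the ASC-Is were below 5.93, the lowest array median, and the other arrays were above it. Whether Slc2a4 was detected above background was not tested. All 3 ASC-L arrays and all 3 ASC-I arrays lay above every ASC-N array, and the ASC-I arrays overlapped those of the ASC-Ls. The mean was 6.30 ± 0.11 in ASC-Ls and 5.65 ± 0.09 in ASC-Ns (SD, n = 3 each), a difference of 0.65 on the log2 scale with a 95% interval of 0.37 to 0.93, or 1.57-fold. ASC-Is averaged 6.06 ± 0.17, which was 0.41 above ASC-Ns (0.12 to 0.69, 1.32-fold) and -0.24 relative to ASC-Ls (-0.52 to 0.04). Both differences from ASC-Ns rest on the same 3 ASC-N arrays. The order of the means was ASC-N, ASC-I, ASC-L, of which the neighbors ASC-I and ASC-L were not separated beyond their spread. The difference between stages held 86.5% of the total sum of squares of Slc2a4, the highest share of the members. The members were chosen with the stage values in view, so this share is a description. The median share was 13.2% over the members and 15.9% over all genes. How many of all genes reached 86.5% was not counted.

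**Figure D1:**
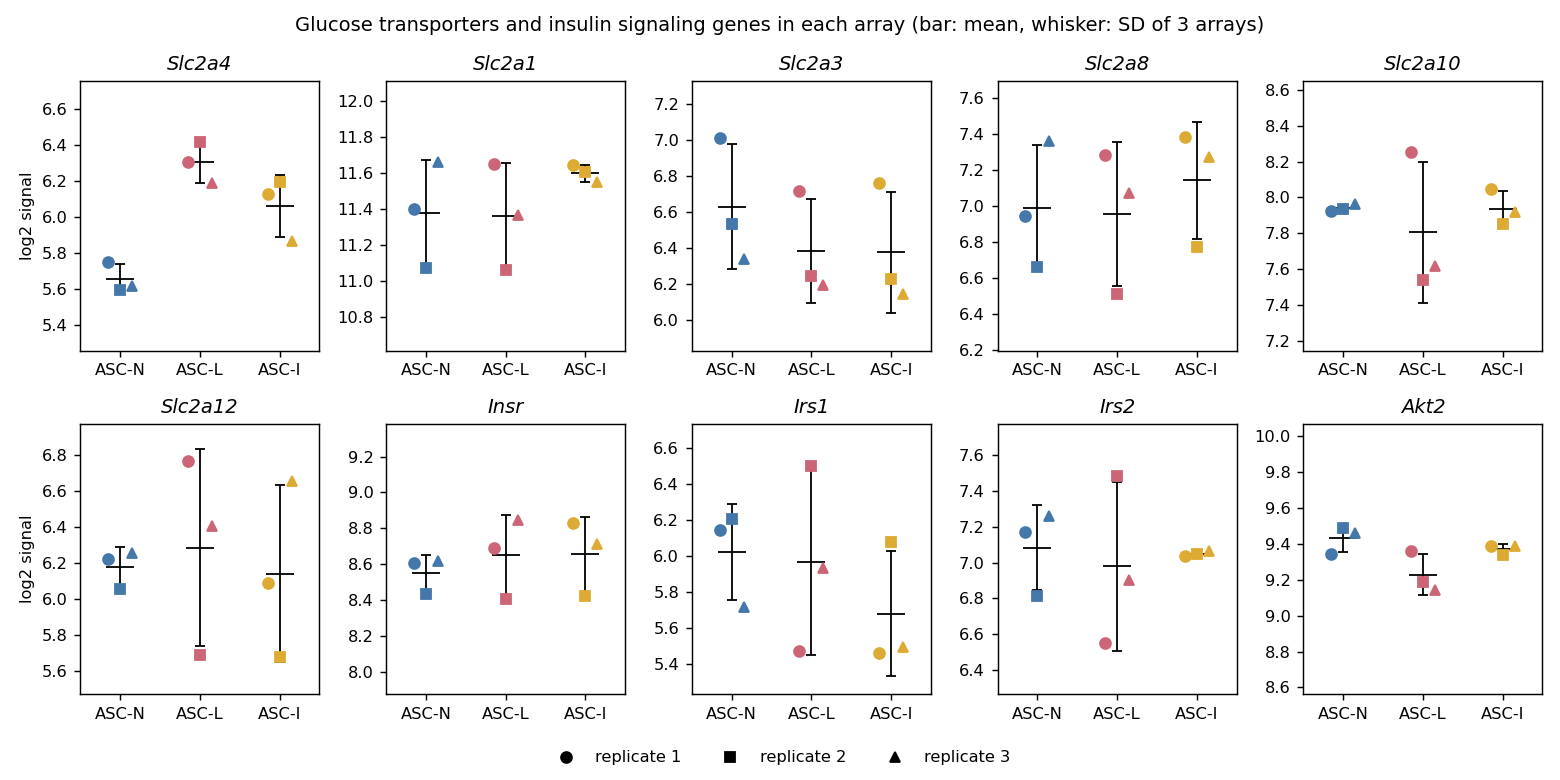
Log2 signal of each of the 10 genes in the 9 arrays, by stage, with a symbol for each replicate number. The bar is the mean and the whisker the SD of 3 arrays, and every panel spans 1.5 log2 units. The ASC-N arrays of Slc2a4 lie below all arrays of both other stages, whereas the stages overlap in the remaining panels.

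The size of the Slc2a4 difference varied with the treatment of the arrays. A gene was counted as past the limits when limma gave it a p below 0.05 before adjustment and its means were 1.5-fold or more apart. For the 10 members such a count is a description of values that were known when they were chosen. Slc2a4 was the 1 member counted in ASC-Ls relative to ASC-Ns, beside 0.627% of all genes, and 8.59% of all genes had arrays that did not overlap. With arrays weighted by their quality, the difference was 0.58, short of 1.5-fold, and no member was then counted. It was 0.59 to 0.71 when single arrays were left out, and 0.59 without the epithelium-rich arrays. In ASC-Ls and in ASC-Is, Slc2a4 was highest in the epithelium-rich array. It exceeded the mean of the other arrays of its stage there by 0.17 and 0.20. In the ASC-Ns its lowest array was replicate 2. Over the 7 arrays outside the epithelium-rich pair, its r with the mean of the luminal markers was -0.34, a value that leaves that pair out. Adipocyte and muscle cells are the classical sites of Slc2a4. The 17 measured adipocyte markers averaged 6.19 in ASC-Ns, 6.10 in ASC-Ls and 6.17 in ASC-Is. Among them Cd36 was highest in the epithelium-rich arrays (8.68 and 9.20). Muscle markers (10 genes) averaged 5.88 to 6.20 in ASC-Ns, 5.94 to 6.32 in ASC-Ls and 5.85 to 6.11 in ASC-Is. The part of other cell types in the Slc2a4 difference was not tested.

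The other transporters showed no such separation. Slc2a1, which encodes GLUT1, the transporter of basal uptake, had signals of 11.40, 11.07 and 11.66 in the ASC-Ns, 11.65, 11.06 and 11.37 in the ASC-Ls, and 11.64, 11.61 and 11.55 in the ASC-Is. The ASC-I arrays were close to each other (SD 0.05), and the ASC-L and ASC-N arrays were scattered (SD 0.30 and 0.29), so that all stages overlapped. Relative to ASC-Ns the difference was -0.02 (-0.44 to 0.40) in ASC-Ls and 0.22 (-0.20 to 0.64) in ASC-Is. ASC-Is differed from ASC-Ls by 0.24 (-0.18 to 0.66).

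Slc2a3, which encodes the high-affinity transporter GLUT3 best known from neurons, had signals of 7.02, 6.54 and 6.34 in the ASC-Ns, 6.72, 6.24 and 6.19 in the ASC-Ls, and 6.76, 6.23 and 6.14 in the ASC-Is. Replicate 1 was the highest array in each stage. The difference from ASC-Ns was -0.25 in ASC-Ls (-0.78 to 0.29) and -0.25 in ASC-Is (-0.79 to 0.28), whereas ASC-Is and ASC-Ls differed by -0.01 (-0.54 to 0.53).

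Slc2a8 encodes GLUT8, a transporter held mostly on membranes inside the cell. Its signal was 6.94, 6.66 and 7.36 in the ASC-Ns, 7.28, 6.51 and 7.07 in the ASC-Ls, and 7.38, 6.77 and 7.27 in the ASC-Is. Replicate 2 was the lowest array of every stage, and the stages overlapped throughout. The differences were -0.03 for ASC-Ls relative to ASC-Ns (-0.62 to 0.55), 0.15 for ASC-Is relative to ASC-Ns (-0.43 to 0.74) and 0.19 for ASC-Is relative to ASC-Ls (-0.39 to 0.77).

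Slc2a10 encodes GLUT10, which is lost in human arterial tortuosity syndrome. It was nearly the same in the 3 ASC-N arrays (7.93, 7.94 and 7.96), spread out in the ASC-Ls (8.25, 7.54 and 7.62) and less so in the ASC-Is (8.05, 7.85 and 7.92). The SD was 0.02 in ASC-Ns, 0.39 in ASC-Ls and 0.10 in ASC-Is. Its mean differed by -0.14 between ASC-Ls and ASC-Ns (-0.54 to 0.27), by 0.00 between ASC-Is and ASC-Ns (-0.41 to 0.40) and by 0.13 between ASC-Is and ASC-Ls (-0.27 to 0.54).

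Slc2a12, which encodes GLUT12, had the widest range of the 10 genes when probe sets were averaged, 1.09 on the log2 scale. The higher of the 2 Irs1 probe sets ranged more widely by itself, from 6.71 to 8.19. The signals of Slc2a12 were 6.22, 6.05 and 6.26 in the ASC-Ns, 6.77, 5.69 and 6.40 in the ASC-Ls, and 6.09, 5.68 and 6.65 in the ASC-Is. Both extremes fell in cells from parous mice, and the 3 ASC-N arrays lay between them. Stage accounted for 2.95% of its sum of squares, and the difference was 0.11 for ASC-Ls relative to ASC-Ns (-0.58 to 0.79). It was -0.04 for ASC-Is relative to ASC-Ns (-0.72 to 0.65) and -0.14 relative to ASC-Ls (-0.83 to 0.54).

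**Figure D2:**
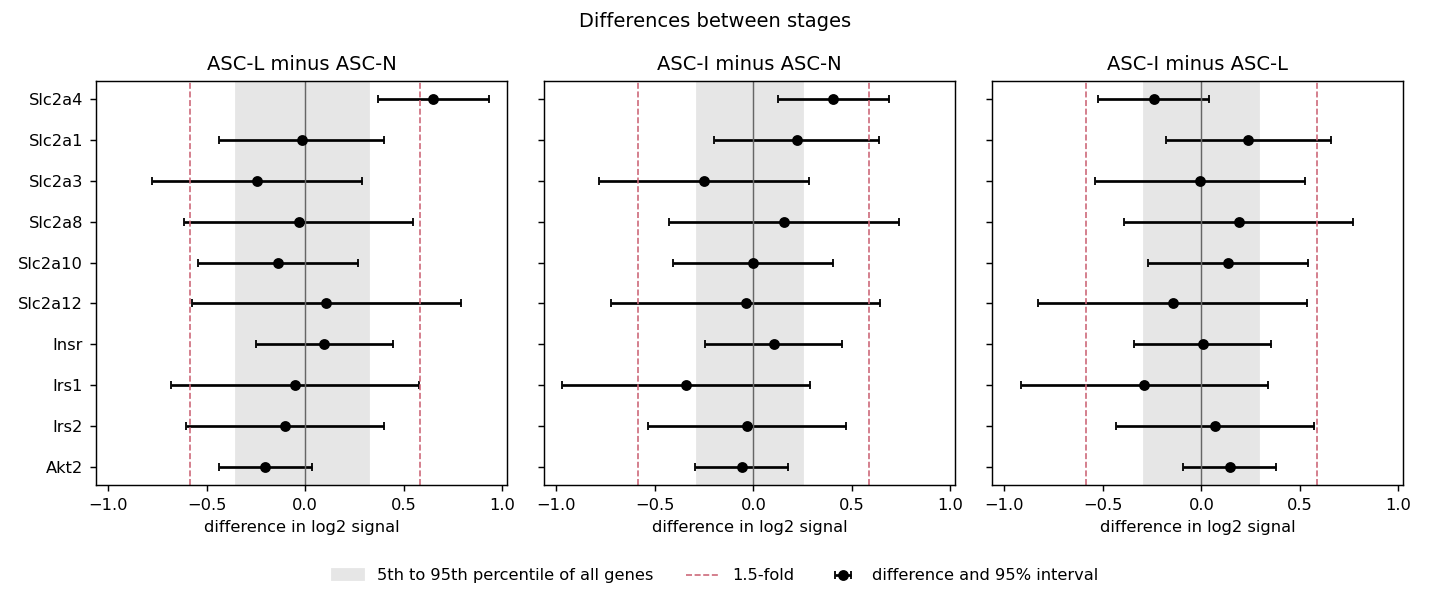
Differences in mean log2 signal between stages for the 10 genes, with 95% intervals from limma, for ASC-L minus ASC-N, ASC-I minus ASC-N and ASC-I minus ASC-L. The gray band spans the 5th to 95th percentile of all 19930 genes and the dashed lines mark 1.5-fold. Slc2a4 has the largest difference of the 10 genes in the first panel (0.65) and in the second (0.41).

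Among the signaling genes, Insr, the receptor itself, varied little. Its signal was 8.61, 8.44 and 8.62 in the ASC-Ns, 8.69, 8.41 and 8.85 in the ASC-Ls, and 8.83, 8.42 and 8.71 in the ASC-Is. Replicate 2 was again the lowest array of each stage. The differences from ASC-Ns were 0.10 in ASC-Ls (-0.25 to 0.44) and 0.10 in ASC-Is (-0.24 to 0.45), and ASC-Is and ASC-Ls differed by 0.01 (-0.34 to 0.35). The 2 probe sets of Insr had opposite signs in that last comparison (0.09 and -0.07).

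Irs1 and Irs2, the docking proteins of the receptor, had an r of 0.49 with each other over the 9 arrays and of 0.13 without the epithelium-rich ones. Irs1 had signals of 6.14, 6.21 and 5.71 in the ASC-Ns, 5.47, 6.50 and 5.93 in the ASC-Ls, and 5.46, 6.08 and 5.49 in the ASC-Is. These are means of 2 probe sets of unlike level, 1 between 4.08 and 4.82 and the other between 6.71 and 8.19. The level and range of Irs1 therefore depend on the averaging. In each stage the highest Irs1 array was replicate 2, the array in which Slc2a8 was lowest. The mean of Irs1 was 5.68 ± 0.35 in ASC-Is and 6.02 ± 0.27 in ASC-Ns, a difference of -0.34 with an interval of -0.97 to 0.29. It was -0.05 in ASC-Ls relative to ASC-Ns (-0.68 to 0.58), where its 2 probe sets gave 0.04 and -0.14, and -0.29 in ASC-Is relative to ASC-Ls (-0.92 to 0.34).

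Irs2 had signals of 7.17, 6.81 and 7.26 in the ASC-Ns, 6.55, 7.48 and 6.90 in the ASC-Ls, and a nearly constant 7.03, 7.05 and 7.06 in the ASC-Is. The SD was 0.24 in ASC-Ns, 0.47 in ASC-Ls and 0.01 in ASC-Is. Both its lowest and its highest array were ASC-Ls. The mean of ASC-Ls differed from that of ASC-Ns by -0.10 (-0.61 to 0.40), and stage accounted for 2.85% of the sum of squares. The mean of ASC-Is differed by -0.03 from that of ASC-Ns (-0.54 to 0.47) and by 0.07 from that of ASC-Ls (-0.43 to 0.57).

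Akt2, the Akt isoform needed for insulin-stimulated glucose uptake in fat, had the narrowest range of the members, 0.35 on the log2 scale. It was 9.34, 9.49 and 9.46 in the ASC-Ns, 9.36, 9.19 and 9.14 in the ASC-Ls, and 9.39, 9.34 and 9.39 in the ASC-Is. Replicates 2 and 3 of the ASC-Ls were below all other arrays, whereas replicate 1 lay among the ASC-Ns. The mean was 9.23 ± 0.11 in ASC-Ls and 9.43 ± 0.08 in ASC-Ns, a difference of -0.20 (-0.44 to 0.03). ASC-Is differed by -0.06 from ASC-Ns (-0.30 to 0.18) and by 0.14 from ASC-Ls (-0.09 to 0.38). Both probe sets of Akt2 were lower in ASC-Ls, by differences of -0.17 and -0.23. Stage held 61.8% of its sum of squares, the second highest share of the members.

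Over the 10 genes, the median difference was -0.04 in ASC-Ls relative to ASC-Ns, -0.02 in ASC-Is relative to ASC-Ns and 0.04 in ASC-Is relative to ASC-Ls, beside 0.01, 0.00 and -0.01 over all genes. The count of members past the limits was 1, 0 and 0 in these comparisons, beside 0.627%, 0.251% and 0.482% of all genes. Only Slc2a4 had arrays that did not overlap, in the first and the second comparison, where 8.59% and 6.54% of all genes had such arrays, and no member did in the third (5.56% of all genes). No gene of the 19930 reached an adjusted p under 0.05 in limma in any of the 3 comparisons, and 726, 311 and 359 genes had an unadjusted p under 0.05. With the replicate number as a block, the genes past the limits in ASC-Is relative to ASC-Ls numbered 207, against 96 without it, and the members among them were 0 in both. Among 10 lists of marker genes, the luminal Elf3 and F11r and the milk gene Wap were higher past the limits in ASC-Ls relative to ASC-Ns, and the macrophage gene Csf1r and the stromal gene Pdgfra lower. Without replicate 2 of the ASC-Ls none of these 5 genes passed, and the differences were 0.51 for Elf3, 0.50 for F11r (0.89 with it), 0.40 for Wap (0.81 with it), -1.06 for Csf1r and -0.63 for Pdgfra (-1.22 with it). In ASC-Is relative to ASC-Ls 9 of 16 macrophage markers were higher past the limits, and marker lists of adipocytes, muscle, basal epithelium, endothelium, neutrophils and erythroid cells held none in any comparison.

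For 8 of the 10 genes most of the sum of squares lay within stages, and the SD within stages was above the median of all genes (0.20) for 7. Stage held a median of 13.2% of the sum of squares over the 10 genes and 15.9% over all genes. A large share within stages was thus not particular to the members. Single arrays shared part of the variation within stages. Replicate 2 was the lowest array for Slc2a8, Slc2a12 and Insr in all 3 stages, and the highest for Irs1 in all 3. The share of all genes with such ranks was not counted. Over all genes, deviations of replicate 2 from the stage means also correlated between stages. The r was 0.40 for ASC-Ls and ASC-Ns, 0.43 for ASC-Is and ASC-Ns and 0.73 for ASC-Is and ASC-Ls. In the ASC-Ls, replicate 2 differed from the mean of the other arrays by -0.67 for Slc2a8, -0.90 for Slc2a12, -0.36 for Insr and 0.80 for Irs1. In the ASC-Is the same differences were -0.56, -0.69, -0.35 and 0.60, and in the ASC-Ns -0.49, -0.19, -0.17 and 0.28.

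Slc2a8 and Irs1 formed the tightest of the 45 pairs of members, and an inverse one. Across the 9 arrays, Pearson's r was -0.94 and Spearman's rho -0.93, given as a description since the pair was picked as the tightest and the members were chosen with these values known. The relation held within stages (r = -0.96 for deviations from the stage means), without the 2 arrays farthest from the median of Slc2a8 (r = -0.88) and without the epithelium-rich arrays (r = -0.90). Slc2a1 went with Slc2a8 (r = 0.83, rho = 0.83) and against Irs1 (r = -0.82, rho = -0.78). Without its 2 farthest arrays, replicate 2 of the ASC-Ls and of the ASC-Ns, the r of Slc2a1 and Slc2a8 was 0.48. It was 0.97 without the epithelium-rich arrays, which also include replicate 2 of the ASC-Ls. The r thus depended on which arrays were left out. Slc2a8 also went with Insr (r = 0.81, rho = 0.75, and 0.62 without the 2 farthest arrays).

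Epithelial signal moved with the same pair. Over the 7 arrays other than replicate 2 of the ASC-Ls and of the ASC-Is, the mean of the luminal markers had an r of -0.91 with Slc2a8, 0.89 with Irs1 and -0.82 with Slc2a1. The mean of the macrophage markers had an r of -0.26, 0.09 and -0.26 with these genes over the same arrays. Basal markers had an r of -0.72, 0.67 and -0.57, and endothelial markers of -0.39, 0.54 and -0.24. Among these 7 arrays, replicates 1 and 2 of the ASC-Ns had the highest luminal means (6.84 and 6.80, against 5.73 to 6.22). They also had the lowest Slc2a8 signals (6.94 and 6.66) and the highest Irs1 signals (6.14 and 6.21). The luminal r values may therefore rest largely on these ASC-N arrays, and r without them was not calculated. All arrays share their normalization, and the part of RNA from other cell types in these relations was not tested.

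**Figure D3:**
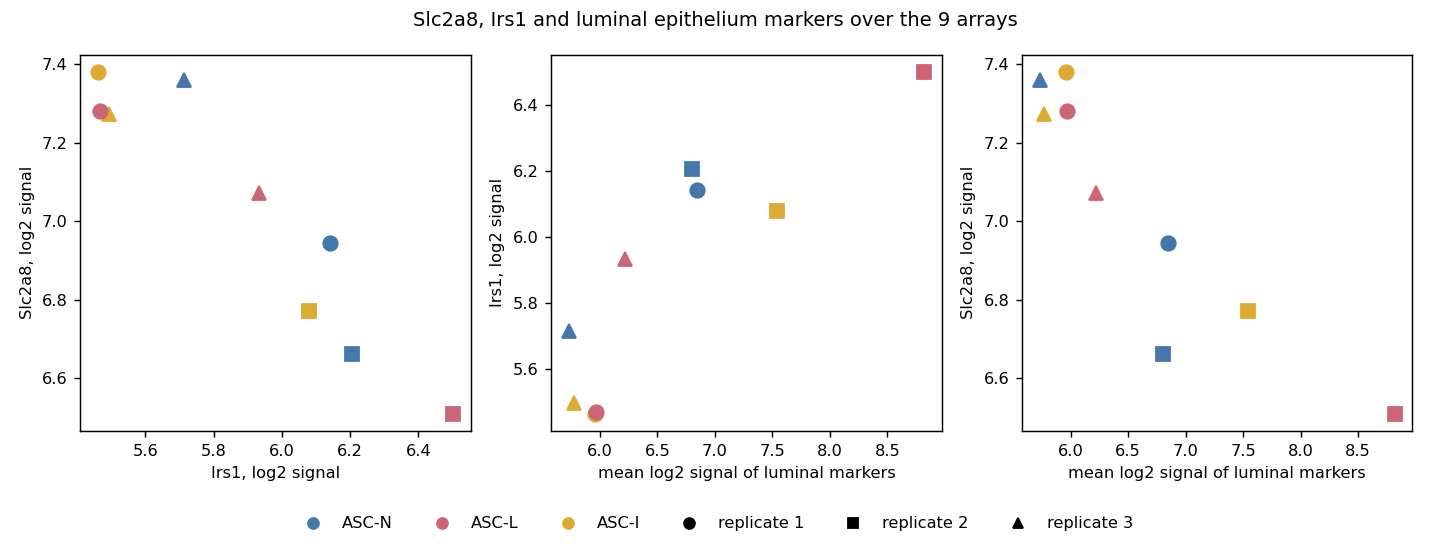
Log2 signal of Slc2a8 against Irs1 (left), and of Irs1 (middle) and Slc2a8 (right) against the mean log2 signal of 15 luminal epithelium markers, with 1 point per array, colors for stages and symbols for replicate numbers. Slc2a8 is low where Irs1 is high (r = -0.94 over 9 arrays), and replicate 2 of the ASC-Ls, with a luminal mean of 8.82, lies at the end of each panel.

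Of 111 other genes of the pathway, listed by role, 102 were measured. In ASC-Ls relative to ASC-Ns, 2 were past the limits, both lower, beside 0.627% of all genes, with a median difference of -0.06. In ASC-Is relative to ASC-Ns 1 was past the limits (0.251% of all genes), and in ASC-Is relative to ASC-Ls 0 were (0.482% of all genes). The pathway genes with an unadjusted p under 0.05 in limma numbered 3, 3 and 0 in these comparisons. Over all genes the shares were 3.64%, 1.56% and 1.8%.

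Pparg, the nuclear receptor that drives fat cell differentiation, was lower in both groups from parous mice. Its signal was 7.61, 8.26 and 7.83 in the ASC-Ns, 6.95, 6.63 and 7.23 in the ASC-Ls, and 7.03, 6.74 and 7.42 in the ASC-Is. Every ASC-L array and every ASC-I array lay below every ASC-N array, the reverse of Slc2a4. The difference from ASC-Ns was -0.96 ± 0.24 (SE) in ASC-Ls (limma, unadjusted p = 0.00284, adjusted p = 0.998) and -0.83 ± 0.24 in ASC-Is (limma, unadjusted p = 0.00645, adjusted p = 1). Pparg was the only gene past the limits among 11 measured transcription factors of the Slc2a4 promoter, of which 8 had a lower and 3 a higher mean in ASC-Ls (median difference from ASC-Ns -0.08). Pparg kept its side of the limits under every alternative tried in both comparisons.

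Pik3r3, a regulatory subunit of phosphoinositide 3-kinase, was the other gene past the limits. It had signals of 7.05, 7.41 and 6.48 in the ASC-Ls and 7.88, 7.69 and 7.19 in the ASC-Ns, so that the arrays overlapped. The difference was -0.61 ± 0.25 (limma, unadjusted p = 0.0354, adjusted p = 0.998). It did not pass the limits after quantile normalization (-0.56), after cyclic loess (-0.56) or with the other stage left out of the fit, nor without replicate 1 or 2 of the ASC-Ns or replicate 1 or 3 of the ASC-Ls, where it was -0.36 to -0.64. The 13 measured genes of this list, which holds subunits of the kinase, lipid phosphatases that oppose it, the downstream kinase gene Pdpk1 and the Akt phosphatase genes Phlpp1 and Phlpp2, had a median difference of -0.11 in ASC-Ls, 0.03 in ASC-Is relative to ASC-Ns and 0.13 in ASC-Is relative to ASC-Ls.

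**Figure D4:**
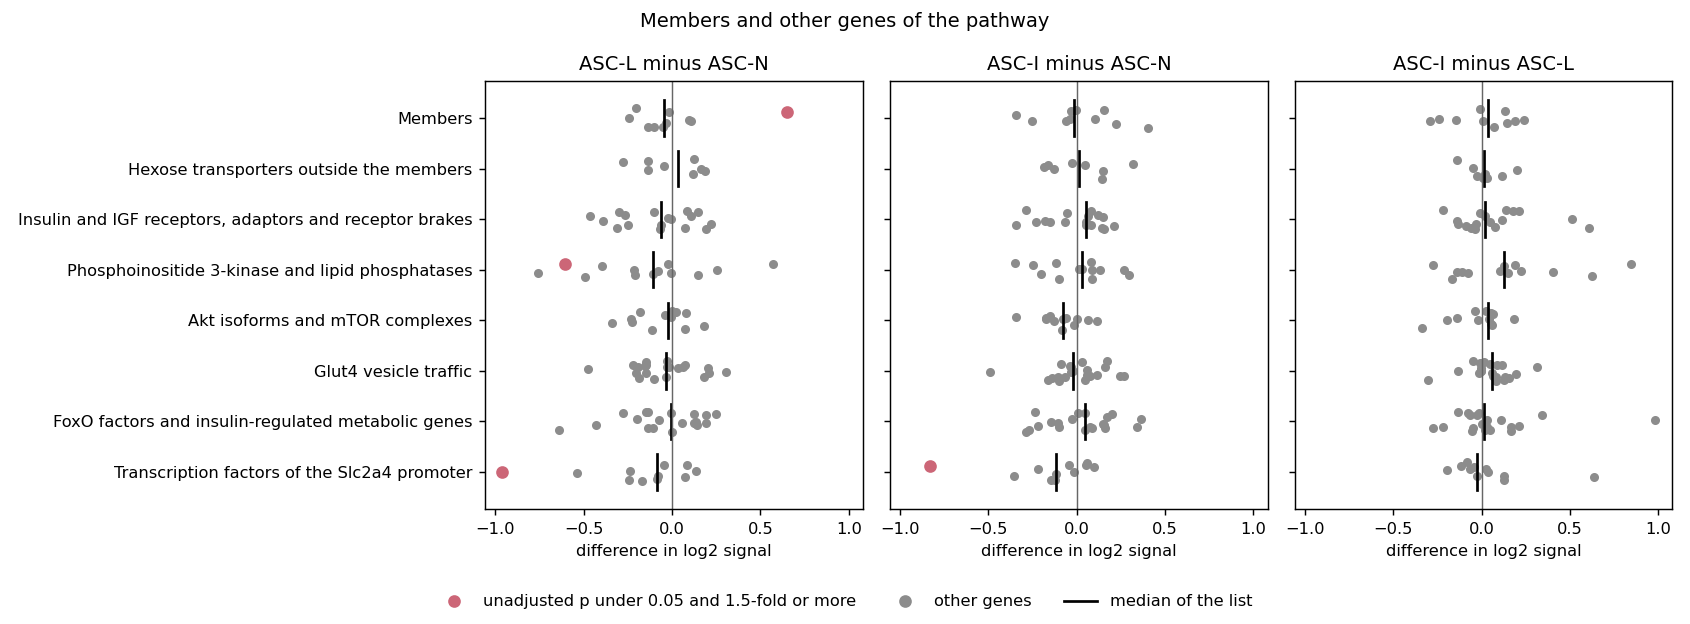
Differences in mean log2 signal for the 10 genes and for 102 other genes of the pathway grouped by role, with 1 point per gene and a vertical line at the median of each list. Colored points are past the limits (Slc2a4, Pik3r3 and Pparg in ASC-L minus ASC-N, Pparg in ASC-I minus ASC-N), and the medians lie between -0.12 and 0.13.

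The remaining lists held no gene past the limits in any comparison. The 8 hexose transporters outside the members had a median difference of 0.04 in ASC-Ls relative to ASC-Ns, and the largest differences were -0.28 for Slc2a13, a proton-coupled myo-inositol transporter, and 0.19 for Slc5a1, which couples glucose to sodium. Insulin and IGF receptors, adaptors and receptor brakes (17 measured) had a median of -0.06, with -0.46 ± 0.58 for the adaptor Grb14, which inhibits the receptor, and -0.39 ± 0.27 for Socs3, which marks its substrates for breakdown. In the same comparison the Akt isoforms and mTOR complexes (12 measured) had a median of -0.02, with -0.34 for Mlst8, a subunit of both mTOR complexes, and -0.23 for Tsc2, which restrains mTOR.

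Genes that move GLUT4 vesicles (21 measured) had a median difference of -0.03 in ASC-Ls relative to ASC-Ns and 0.06 in ASC-Is relative to ASC-Ls. The largest values in ASC-Ls were -0.47 ± 0.24 for Exoc4, a subunit of the tethering exocyst, and 0.30 ± 0.34 for Tbc1d1, which holds vesicles back until it is phosphorylated. FoxO factors and insulin-regulated metabolic genes (20 measured) had a median of 0.00 in ASC-Ls relative to ASC-Ns. Ppp1r3c, which directs a phosphatase to glycogen, was the most variable of these that are named here, with signals of 6.69, 4.48 and 4.87 in the ASC-Ls and 6.33, 5.07 and 6.56 in the ASC-Ns. Its difference of -0.64 ± 0.74 was smaller than its SE, and that of the hexokinase gene Hk3 was -0.43 ± 0.23.

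The genes most like each member over the 9 arrays were sought among 12755 genes with a range of at least 0.5 on the log2 scale. Those most like Slc2a4 were Bean1 (r = 0.91), Ccdc88c (0.91), Rbpms2 (0.91), Glrp1 (0.91) and Susd4 (0.90). Rbpms2 had the largest stage difference of these 5, with means of 7.12 in ASC-Ls and 6.30 in ASC-Ns. The most similar genes were Acaa1a and Cuedc1 for Slc2a8 (r = 0.98 each), and Ccar1 and Ncbp1 for Irs1 (0.98 each). Scn7a, a sodium channel gene, was most like Slc2a3 (r = 0.96) and shared its high values in replicate 1, with 7.86 in ASC-Ns, 6.13 in ASC-Ls and 6.61 in ASC-Is. The remaining members had their highest r at 0.96 for Slc2a1 (D830025C05Rik), 0.97 for Slc2a10 (Rnf6), 0.95 for Slc2a12 (Rerg), 0.96 for Insr (Mir431), 0.91 for Irs2 (Slc35f1) and 0.94 for Akt2 (Lage3). These values are the highest of many searched and come from arrays normalized together.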

How the data were processed

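Total RNA of 9 preparations of mammary adipose stroma was hybridized to Affymetrix Mouse Gene 1.0 ST arrays. The authors deposited 1 log2 signal per probe set and array, normalized by robust multi-array average in R and Bioconductor according to the methods of the study and with GCRMA and limma according to the submitters' processing notes, without versions. Which of these made the values is not settled, no detection call was used here, and array medians were 5.93 to 6.00. Of 28348 probe sets, 21762 had a single symbol in the platform annotation, 1621 had several and 4965 had none, and only the first kind was used. The RefSeq table (GRCm38.p6) held the Entrez identifiers of 21671 of them and changed 0 symbols. Probe sets of a gene were averaged, which gave 13 probe sets for the 10 genes (7 with 1, 3 with 2).

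Linear models were fitted in limma 3.58.1 (R 4.3.3) to all 9 arrays with a mean per stage and empirical Bayes moderation. Limits were an unadjusted p under 0.05 and at least 1.5-fold, and p-values were adjusted by the Benjamini-Hochberg method over 19930 genes. The script was tested on simulated data. The members and lists were chosen with earlier results of these data known. Genes named were all members, list genes past the limits or, where none passed, the 2 with the largest difference in ASC-Ls relative to ASC-Ns, and the genes most correlated with each member.

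Replicate numbers are shared between stages without a stated pairing. Deviations from stage means of same-numbered arrays correlated over 0.1 in every pair of ASC-Is and ASC-Ls (r = 0.47, 0.73 and 0.46), but not of ASC-Ls and ASC-Ns (-0.08, 0.40 and 0.45) or ASC-Is and ASC-Ns (0.07, 0.43 and 0.50), so the block is given beside ASC-Is relative to ASC-Ls. With 3 arrays per stage, the number of arrays limits the precision. Alternatives covered normalization, centering, probe sets, the prior, array weights, filters, the block and left-out arrays.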

Additional observations from a re-analysis of the deposited data

How the results depend on the processing

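The members kept their side of the limits under every alternative except array weights, where the count of members past the limits in ASC-Ls relative to ASC-Ns was 0 in place of 1. The numbers of all genes past the limits were less stable, and the cause was not tested. In ASC-Ls relative to ASC-Ns the number was 125 and became 311 with array weights, 295 with the replicate block and 80 to 404 when single arrays were left out, the extremes being without replicate 1 of the ASC-Ns and without replicate 1 of the ASC-Ls. It was also 352 without replicate 3 of the ASC-Ns and 230 without replicate 3 of the ASC-Ls. In ASC-Is relative to ASC-Ns it was 50 and became 187 with array weights, 90 with the replicate block, 144 without the epithelium-rich arrays, and 32 to 221 when single arrays were left out (without replicates 1 and 3 of the ASC-Ns), with 83 and 92 without replicates 2 and 3 of the ASC-Is. In ASC-Is relative to ASC-Ls it was 96 and became 207 with the replicate block, 194 without the epithelium-rich arrays, and 36 to 331 when single arrays were left out (without replicate 1 of the ASC-Is and of the ASC-Ls), with 316 and 61 without replicates 2 and 3 of the ASC-Is. The block changed no other call of a member. Where an array was left out, its stage kept 2 arrays. Protein sequences were not compared here, and signal over background was not used here.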
